A study of Homo sapiens with 12 samples.

Results

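RNA of a line labelled as an ID2 rescue was compared with RNA of the wild-type cells it ultimately came from, gene by gene, to describe what still differed from wild-type. The comparison used 6 of the 12 libraries of the series, 3 labelled rescue and 3 of wild-type, chosen by their titles. All were of TC71, an established human Ewing sarcoma cell line, grown in DMEM with 10% serum, and held polyadenylated RNA. The wild-type libraries had ID2 status wildtype and no rescue. The libraries labelled rescue were of knockout clone 2, with ID2 status knockout and ID2 rescue yes, so this arm is 1 line made from 1 clone. The labels do not say how ID2 was knocked out, how it was put back, or whether replicate libraries were grown as separate cultures. The p-values therefore reflect the variation among the libraries at hand, which may be technical. Knockout clone 2 itself, with 3 libraries and no rescue, is given beside the results, and both it and the rescue were compared with the same 3 wild-type libraries.

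ID2 is a helix-loop-helix protein that lacks the basic region used to touch DNA. It pairs with E proteins such as TCF3, TCF4 and TCF12 and keeps them from binding DNA, and it is known for holding back differentiation in neural and other progenitors. Ewing sarcoma is driven by a fusion of EWSR1 with an ETS factor, most often FLI1, and ID2 is among the genes known to be activated by that fusion.

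Levels are given as CPM, that is, read counts put on 1 common library size with TMM factors, and each mean carries its SD (n = 3). Differences are log2 fold changes of the libraries labelled rescue against wild-type from edgeR's quasi-likelihood fit, positive where the libraries labelled rescue were higher. Totals were 25875646 to 27107395 counts in the libraries labelled rescue and 21782222 to 29748084 in wild-type, and 17084 of 21569 genes were tested. Genes with a p under 0.05 after Benjamini-Hochberg adjustment over all genes tested are described as called, or as risen or fallen. Of 11 Ewing sarcoma markers tested 6 were called lower, 1 higher and 4 not called, and they are described below. Of the 4 not called, CD99, the surface antigen used in diagnosis, was at 413 ± 16.7 CPM in wild-type and 434 ± 18.1 in the libraries labelled rescue. FLI1, also not called, was at 90.1 ± 0.857 and 89.6 ± 2.25.

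ID2 itself stayed below wild-type. Its level was 77.6, 78.6 and 77.4 CPM in the 3 wild-type libraries, 42, 41.6 and 40.9 in the 3 labelled rescue and 47.8, 50.8 and 54.1 in clone 2. The libraries labelled rescue were thus the lowest of the 3 groups, and no value overlapped between groups. The difference from wild-type was -0.91 (SE 0.0446, adjusted p = 1.41e-20), and that from clone 2 was -0.29 (adjusted p = 3.52e-06). RNA counts thus showed no regain of ID2. Clone 2, labelled knockout, also kept ID2 RNA, so the RNA level alone cannot decide whether the rescue label holds. The gene lies at chr2:8678845-8684453 on the plus strand (hg38, protein coding), and whether a rescue transcript would be counted there is not given in the sources used here. As these are bulk libraries, fewer cells with ID2 RNA and less ID2 RNA per cell cannot be told apart. RNA counts do not measure ID2 protein, so every direction below belongs to libraries labelled rescue, not to cells shown to have regained ID2.

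Of the 3 other ID genes, which share ID2's way of acting, ID3 and ID1 were also below wild-type and ID4 was above. ID3 stood at 182, 202 and 185 CPM in wild-type against 84.03, 80.2 and 81.7 in the libraries labelled rescue, with no overlap, a difference of -1.21 (adjusted p = 2.22e-26). ID1 went from 43.3 ± 0.402 to 25.8 ± 1.36 CPM (-0.75, adjusted p = 2.87e-15) and ID4 from 38.3 ± 1.29 to 51.6 ± 1.85 (0.43, adjusted p = 3.18e-10). Clone 2 had the same signs, at -0.64 for ID3, -0.57 for ID1 and 0.49 for ID4. Among the E proteins, the partners of ID2, TCF12 (-0.28) and TCF3 (-0.18) were called lower by small amounts, and TCF4 (-0.027, adjusted p = 0.52) was not called.

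Most genes differed from wild-type, usually by little. Of the 17084 genes tested 9982 were called, which is 58.4%, with 4868 higher (28.5%) and 5114 lower (29.9%). Which direction had more genes depended on the scaling, as upper quartile scaling gave 5537 higher and 4470 lower. The median fold of the called genes was 1.33, in either direction. Called genes changed at least 2-fold numbered 1159 higher (6.78% of those tested) and 679 lower (3.97%), and at 4-fold or more 269 and 243. The 3 and 3 libraries did not overlap for 61.9% of the genes. The median over all genes tested was 0.0035, so medians of gene lists are read below against a background near 0. Counts of list members called are to be read against the shares over all genes tested, 28.5% higher and 29.9% lower. Against the same wild-type libraries, clone 2 had 62.1% of genes called, with 1775 at least 2-fold higher (10.4%) and 491 at least 2-fold lower (2.87%). Between the libraries labelled rescue and clone 2, 39.2% of genes were called, and 82 were at least 2-fold higher (0.48%) and 764 at least 2-fold lower (4.47%) in the libraries labelled rescue.

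Of the 15 genes that rose most, 13 had 9 reads or fewer over the wild-type libraries, and GABRA5 and GPR27 had 191 and 39. GABRA5, a subunit of the GABA-A receptor of neurons, was at 3.104, 2.27 and 2.38 CPM in wild-type and 126, 126 and 129 in the libraries labelled rescue, and every value of the latter was far above every wild-type value. Its difference was 5.62 (SE 0.0696, adjusted p = 6.08e-41), and clone 2 stood at 129.7 ± 2.12 CPM. The next subunit gene, GABRG3, had 2 reads in wild-type and 90 in the libraries labelled rescue, a ratio of 42.01 (95% counting interval 11.3 to 352). GABRA5 lies at chr15:26866363-26949207 and GABRG3 at chr15:26971282-27541991 (hg38), so they are neighbours.

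FABP7, a fatty acid carrier of radial glia, stood at 0.0419, 0.0948 and 0.0345 CPM in wild-type and 6.61, 7.75 and 7.26 in the libraries labelled rescue, a difference of 6.93 (adjusted p = 1.8e-23). Clone 2 lay between them at 1.15, 0.962 and 1.53 CPM, with no overlap with either. GPR27, an orphan receptor, went from 0.545, 0.521 and 0.517 to 9.69, 11.1 and 9.404 CPM (4.24, adjusted p = 4.46e-23), and clone 2 stood at 8.76 ± 0.6304. TMTC1, an enzyme that mannosylates cadherins, went from 0.131 ± 0.08396 to 5.63 ± 0.173 CPM, with 4.54 ± 0.283 in clone 2. SCEL, a protein of the cornified envelope of skin, went from 0.121 ± 0.0325 to 3.16 ± 0.294 CPM, with 0.446 ± 0.149 in clone 2.

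For 6 of the genes that rose most, no read was seen in any wild-type library, and their folds are lower bounds set against a floor of 3 counts over the group. ZPLD1, a zona pellucida domain protein, was at 4.96, 4.57 and 4.89 CPM in the libraries labelled rescue, at least 119-fold above wild-type. COL11A1, a chain of the fibrillar collagen of cartilage, was at 4.44, 4.3 and 3.21 CPM, at least 98.3-fold higher. ROS1, a receptor tyrosine kinase, was at 1.58, 1.55 and 2.29 CPM, at least 44.5-fold higher. These 3 were close to silent in clone 2 as well, with 3 reads, 1 read and 0 reads. ADAMTS9, a protease that cuts proteoglycans, was at least 52.3-fold higher, ILDR2 at least 36.7-fold and the heparan sulfate sulfotransferase HS6ST3 at least 29.3-fold. In the libraries labelled rescue they stood at 2.12 ± 0.463, 1.49 ± 0.134 and 1.19 ± 0.102 CPM, and in clone 2 at 1.67 ± 0.204, 1.71 ± 0.222 and 1.31 ± 0.32. MMP1, the interstitial collagenase, had 1 wild-type read and 86 reads in the libraries labelled rescue, a ratio of 80.3 (95% counting interval 14.03 to 3208). IL15RA, the receptor chain that presents interleukin 15, had 3 and 84 reads, a ratio of 26.1 (95% counting interval 8.64 to 129).

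The 15 genes that fell most had 90 to 1725 reads over the wild-type libraries and 3 or fewer over the libraries labelled rescue. PRSS21, a membrane-anchored serine protease of the testis, was at 23.5, 23.3 and 23.2 CPM in wild-type and 0.0367, 0.0775 and 0 in the libraries labelled rescue. That is 1725 reads against 3, a ratio of 616 (95% counting interval 210.4 to 2989). PDGFRA, the platelet-derived growth factor receptor of mesenchymal and glial precursors (chr4:54229097-54298247, hg38), was at 8.599, 9.05 and 8.86 CPM in wild-type and 0, 0 and 0.0765 in the libraries labelled rescue, 653 reads against 2. Its ratio was 349.7 (95% counting interval 96.4 to 2894). NUP210, a nuclear pore protein, kept 1 of 425 reads, and SCML1, a polycomb-like protein, 1 of 379.

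No read at all was left of SLC7A3, a transporter of arginine and lysine, which was at 6.33, 4.83 and 6.41 CPM in wild-type and so at least 157-fold lower. COL4A5, a basement membrane collagen, was at 5.33, 5.69 and 5.72 CPM in wild-type and at least 147-fold lower. VANGL2, a core protein of planar cell polarity, went from 5.66, 4.64 and 4.76 CPM to no read, at least 132-fold lower. All 3 kept a trace in clone 2, with 2, 4 and 7 reads. TACR3, the neurokinin B receptor, was at 4.07, 4.79 and 4.72 CPM in wild-type and had no read in either the libraries labelled rescue or clone 2, at least 119.6-fold lower. NLRX1 (at least 75.7-fold lower), ENTPD3 (at least 71.4-fold) and CHMP4C (at least 66.1-fold) were likewise without a read in the libraries labelled rescue. CCND2, a D-type cyclin, had 76 wild-type reads and none in the libraries labelled rescue or clone 2, at least 27.1-fold lower.

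**Figure D1:**
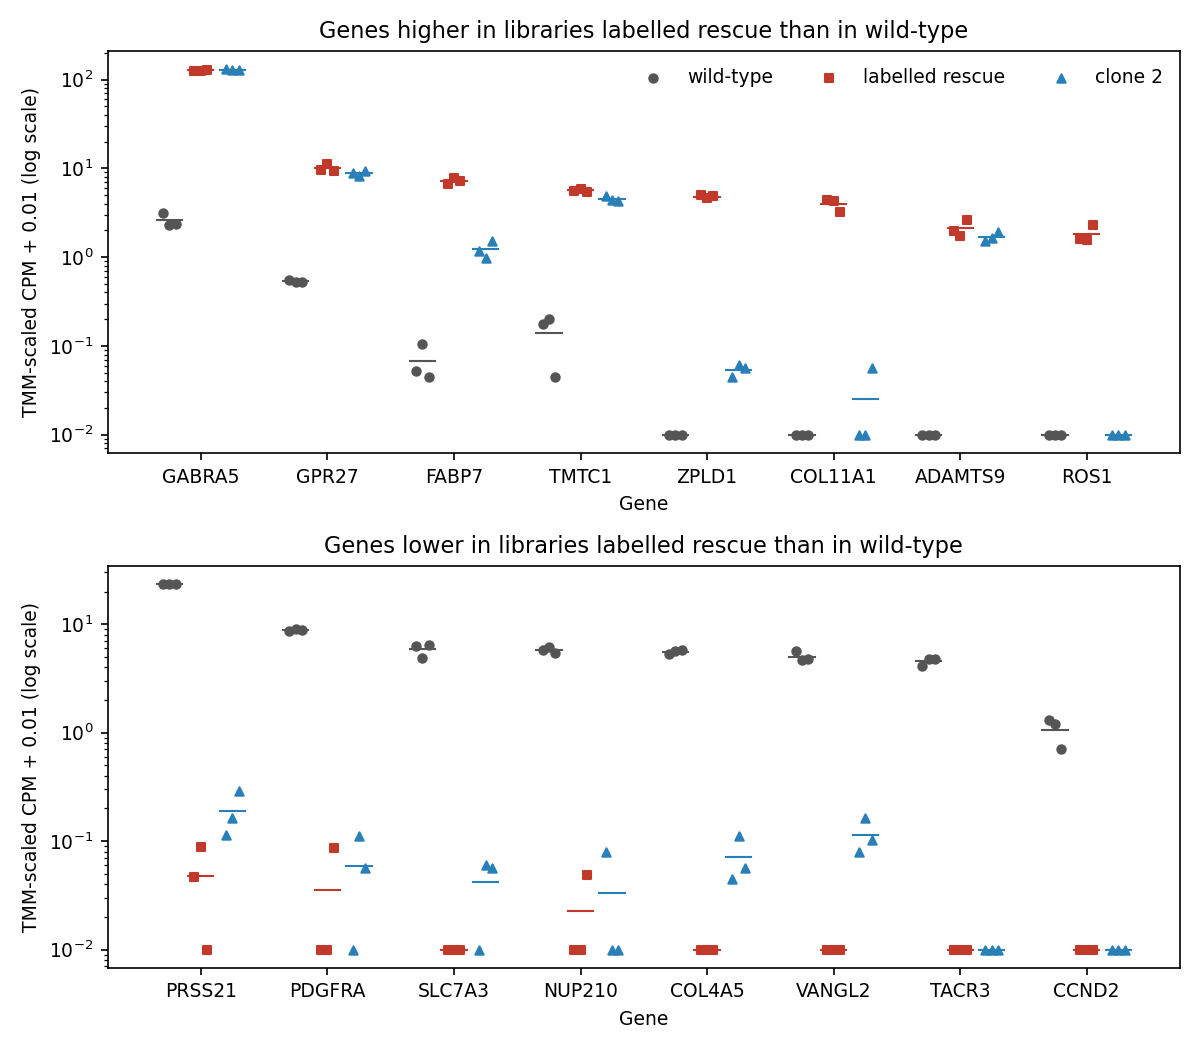
TMM-scaled CPM plus 0.01 on a log axis in each library, for 8 genes that were higher (upper panel) and 8 that were lower (lower panel) in the libraries labelled rescue than in wild-type. Each point is 1 library and each bar the mean of 3, and points at 0.01 are libraries with no read. GABRA5, GPR27, TMTC1 and ADAMTS9 are near the clone 2 level, while ZPLD1, COL11A1 and ROS1 are high in the libraries labelled rescue and at 3 reads or fewer over the clone 2 libraries.

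Genes of MHC class I antigen presentation were mostly higher than in wild-type. This pathway cuts cytosolic proteins with the immunoproteasome, moves the peptides into the endoplasmic reticulum through TAP1 and TAP2, and loads them on class I heavy chains paired with B2M. Of 18 genes tested 15 were called higher, 2 lower and 1 not called, with a median of 0.98, against 0.69 in clone 2. The heavy chain HLA-B was at 7.68, 8.34 and 7.24 CPM in wild-type and 23.7, 26.5 and 24.9 in the libraries labelled rescue (1.697, adjusted p = 2.92e-21). HLA-C was at 17.8, 18.4 and 19.8 and 47.6, 49.8 and 49.3 CPM (1.38, adjusted p = 3.71e-24). For both heavy chains all values labelled rescue were above all wild-type values. HLA genes are near-identical copies, and how reads were divided among them is not given in the sources used here.

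Most other members of the pathway had the direction of HLA-B. B2M, the light chain, was at 654, 651 and 672 CPM in wild-type and 1088, 1161 and 1092 in the libraries labelled rescue (0.76, adjusted p = 1.13e-22), with no overlap. TAP1 went from 3.31, 3.36 and 3.34 to 7.97, 7.87 and 7.302 CPM (1.21) and TAP2 from 3.27, 3.55 and 3.52 to 9.84, 8.097 and 8.83 (1.37). NLRC5, the transactivator of class I genes, rose from 0.327 ± 0.1203 to 1.67 ± 0.331 CPM (2.29, adjusted p = 5.2e-09). The immunoproteasome subunit PSMB9 rose from 0.0983 ± 0.0387 to 0.608 ± 0.115 CPM (2.61), while PSMB8 was called (1.14, adjusted p = 0.0165) although 1 of its values labelled rescue lay within the wild-type range. The PSMB8 call was lost with limma-voom (adjusted p = 0.0645), without replicate 1 (0.0518) or 2 (0.166) labelled rescue and without wild-type replicate 3 (0.0715). ERAP2, an aminopeptidase that trims peptides, rose from 2.62 ± 0.347 to 5.24 ± 0.165 CPM and stood apart from clone 2, at 2.99 ± 0.201 CPM (0.82 labelled rescue against clone 2, adjusted p = 2.75e-06). The lectin chaperone CALR was called slightly lower (-0.13), and the loading chaperone PDIA3 (-0.061, adjusted p = 0.127) was not called.

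Promoters of 3 of these genes, each with a match, are shown because the genes were higher together and an interferon response element and an enhancer A element are known in class I pathway promoters. Each runs from 250 bases before to 50 after the RefSeq gene start (GRCh38.p14), 5′ to 3′ on the gene's own strand. Capitals mark matches to GAAANNGAA, the core of an interferon response element, or to GGGATTCCC, the core of the enhancer A element bound by NF-kappaB, each searched on both strands with overlaps allowed.
TAP1 (chr6:32853655-32853954, minus strand): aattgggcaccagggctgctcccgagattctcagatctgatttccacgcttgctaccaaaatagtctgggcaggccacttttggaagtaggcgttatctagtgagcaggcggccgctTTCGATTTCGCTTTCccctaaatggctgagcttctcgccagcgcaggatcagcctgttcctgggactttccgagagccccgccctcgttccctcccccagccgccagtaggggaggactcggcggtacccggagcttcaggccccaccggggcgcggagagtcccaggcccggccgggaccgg
TAP2 (chr6:32838690-32838989, minus strand): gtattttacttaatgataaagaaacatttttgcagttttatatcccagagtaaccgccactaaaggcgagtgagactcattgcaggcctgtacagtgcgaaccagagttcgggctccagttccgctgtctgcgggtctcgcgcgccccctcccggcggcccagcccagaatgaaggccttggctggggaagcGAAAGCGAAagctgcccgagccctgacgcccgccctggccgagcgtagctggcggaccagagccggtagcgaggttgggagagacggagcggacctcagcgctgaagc
HLA-B (chr6:31357130-31357429, minus strand): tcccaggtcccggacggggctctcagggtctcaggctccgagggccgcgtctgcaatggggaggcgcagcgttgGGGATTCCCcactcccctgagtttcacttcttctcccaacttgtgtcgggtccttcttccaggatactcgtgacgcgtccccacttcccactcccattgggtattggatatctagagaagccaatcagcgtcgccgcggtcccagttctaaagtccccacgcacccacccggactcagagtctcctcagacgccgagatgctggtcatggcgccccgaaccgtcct
TAP1 holds 2 overlapping interferon element matches, which begin 133 and 127 bases before the gene start, and TAP2 holds 1, at 58 bases. HLA-B holds no interferon element match in these letters but has the enhancer A match, which begins 176 bases before the start. Of the 14 antigen presentation genes with a promoter in the table, 7 held the interferon element, against 732 of 11553 promoters of genes tested (6.34%) and 2264 of all 27305 (8.29%). Enhancer A was found in 1 of the 14, HLA-B, and in 99 of all 27305 (0.363%). The promoters of HLA-C, PSMB9, PSMB8 and ERAP2, which were also called higher, held neither match. A match is a description of the letters, and no binding was measured. The motifs were chosen as known ones of this pathway, with values seen, so their share describes the list and not these libraries.

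**Figure D2:**
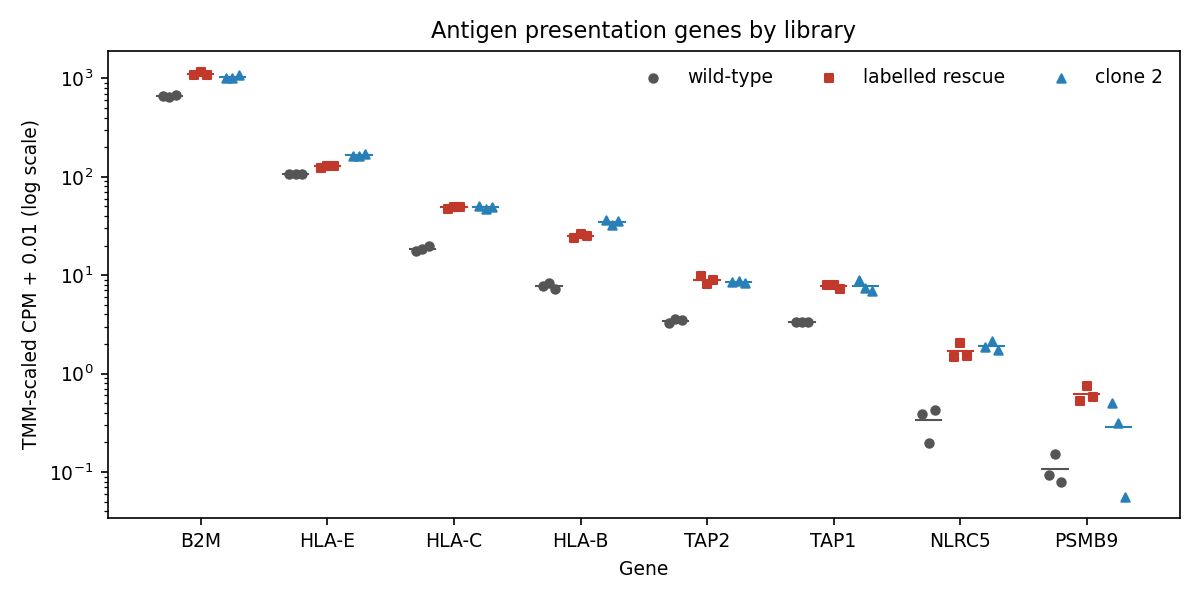
TMM-scaled CPM plus 0.01 on a log axis for 8 antigen presentation genes, with 1 point per library and a bar at the mean of 3. Levels labelled rescue are above wild-type for all of these, and are near clone 2 for HLA-C, TAP1, TAP2 and NLRC5.

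Interferon-stimulated genes were higher more often than lower, but the summed level of the list was not. That sum was 749 to 764 CPM in wild-type and 735 to 756 in the libraries labelled rescue. Of 40 tested 23 were called higher, 7 lower and 10 not called, and their median was 0.33 (0.32 with 1 member without wild-type reads set at its bound), against 0.25 in clone 2. The mono-ADP-ribosyltransferase PARP10 rose from 0.336, 0.426 and 0.138 to 2.09, 3.14 and 1.76 CPM (3.01, adjusted p = 3.61e-11). SAMD9, an antiviral restriction factor, rose from 0.587, 0.995 and 1.17 to 5.21, 4.22 and 4.59 CPM (2.32, adjusted p = 8.45e-14), and HERC6, a ubiquitin ligase, from 0.494 ± 0.0631 to 2.09 ± 0.142 (2.05). For these 3 genes no value labelled rescue lay within the wild-type range. IFIT3 rose from 7.25 ± 0.601 to 18.1 ± 0.734 CPM, and the ubiquitin-like modifier ISG15 from 10.9 ± 1.03 to 21.6 ± 1.5. IRF1, a transcription factor of class I and interferon genes, rose from 6.41 ± 0.309 to 13.8 ± 0.968 CPM (1.103). OAS1, an activator of RNase L, fell from 0.3901 ± 0.207 to 0.0751 ± 0.0357 CPM (-2.25, adjusted p = 0.00122), and the 3 IFITM genes, which block virus entry and lie on chromosome 11, also fell. The count of members called lower goes from 7 to 4 when genes of chromosomes 11 and 18 are left out. The interferon element was present in 21 of the 32 promoters of this list that RefSeq gave (65.6%), a share that likewise describes the list and not these libraries.

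Neuronal genes rose more often than they fell, while the summed level of the list overlapped. That sum was 1949 to 2088 CPM in wild-type and 1984 to 2045 in the libraries labelled rescue. Of 29 tested 16 were called higher, 7 lower and 6 not called, with a median of 0.39 against 0.62 in clone 2. NEFM, a neurofilament subunit, was at 12.2, 13.2 and 12.9 CPM in wild-type and 39.2, 37.2 and 38.8 in the libraries labelled rescue (1.59, adjusted p = 4.02e-24), with clone 2 higher still at 58.3, 60.2 and 62.3. RAB3C, a GTPase of synaptic vesicles, was at 0.0839, 0.0948 and 0.138 and 1.43, 1.28 and 2.103 CPM (3.83, adjusted p = 2.96e-11), again below clone 2, at 6.11, 5.87 and 7.13. For both genes the 3 groups did not overlap. CHGB, a protein of secretory granules, rose from 0.241 ± 0.187 to 2.39 ± 0.527 CPM, the neuronal tubulin TUBB3 from 0.283 ± 0.0497 to 1.702 ± 0.106, and the adhesion molecule NCAM1 from 11.1 ± 1.57 to 27.6 ± 1.13. SYT4, a vesicle protein on chromosome 18, fell from 3.82, 3.41 and 3.72 to 0.3304, 0.0775 and 0.229 CPM (-4.06, adjusted p = 7.9e-17). Of 40 axon guidance genes 17 rose and 12 fell (median 0.0091), where 28.5% of all genes tested rose and 29.9% fell. The repellent SEMA3A was at 45.6 ± 3.49 CPM in the libraries labelled rescue, against 15.7 ± 0.555 in wild-type and 24.97 ± 2.62 in clone 2. The netrin receptor UNC5C was at 2.798 ± 0.338 against 0.526 ± 0.285 and 4.82 ± 0.362, in the same order.

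Genes of the neural crest and glia were divided. Of 21 tested 8 were called higher and 10 lower (median 0.014), where 28.5% of all genes tested were higher and 29.9% lower. Besides FABP7, the calcium-binding protein S100B rose from 0.122 ± 0.0399 to 1.32 ± 0.402 CPM (3.39, adjusted p = 9.66e-10). The lipocalin APOD, secreted by glia and fibroblasts, fell from 24.1, 20.8 and 22.4 to 3.82, 3.99 and 4.82 CPM (-2.42, adjusted p = 2.23e-24), while clone 2 was above wild-type at 66.2, 67.4 and 74.3. The transcription factors SNAI2 (-1.57) and TWIST1 (-1.17), which drive migration of crest cells, and the neurotrophin receptor NGFR (-1.14) fell as well. NGFR was at 29.3 ± 1.51 CPM against 64.5 ± 2.58 in wild-type and 73.8 ± 5.19 in clone 2.

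Cell cycle lists had medians close to wild-type. Most G2, M and S phase genes were called, as were most of all genes tested. Over all genes tested 58.4% were called, 28.5% higher and 29.9% lower. Of 54 G2 and M phase genes 12 were called higher, 22 lower and 20 not called, none by 2-fold, and their median was -0.053, against -0.39 in clone 2. KIF23, a kinesin of the midbody, was at 117, 117 and 117 CPM in wild-type, 86.6, 84.6 and 82.4 in the libraries labelled rescue and 59.8, 57.03 and 59.7 in clone 2 (-0.47 against wild-type, adjusted p = 1.09e-14). CCNB2, a mitotic cyclin, was at 117, 108 and 110.1, 80.03, 84.2 and 77.3 and 59.9, 61.3 and 61.3 CPM in the same order (-0.47, adjusted p = 2.95e-13). Both genes were intermediate, with no overlap between any 2 groups. Of 43 S phase genes 10 were called higher and 19 lower, with a median of -0.053 against -0.22 in clone 2. RRM2, the regulated subunit of ribonucleotide reductase, was above both, at 672, 702 and 654 CPM against 473, 465 and 472 in wild-type and 468, 479 and 472 in clone 2 (0.52 against wild-type, adjusted p = 3.39e-18). The members that fell most, the polymerase subunit POLD3 (-0.84), the reductase subunit RRM1 (-0.66) and the flap endonuclease FEN1 (-0.61), are all on chromosome 11, whose genes were lower as a whole. MCM6, the next by size (-0.56, clone 2 -0.85), is on chromosome 2. Replication-dependent histone genes gave 1 called higher and 2 lower of 14 (median -0.081), against a median of 0.62 in clone 2. H2AC6 was at 55.6, 51.9 and 61.2 CPM in wild-type and 50.1, 50.6 and 60.2 in the libraries labelled rescue, overlapping and not called (adjusted p = 0.396), with clone 2 at 119, 114 and 148. Histone genes are near copies of each other and mostly lack a poly(A) tail.

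Regulators of G1 differed more. Of 14 CDK inhibitors, RB family members and D cyclins with their kinases, 8 were called higher and 3 lower. CDK6, a kinase of D cyclins, was at 2.27, 3.13 and 2.24 CPM in wild-type and 10.2, 11.04 and 10.6 in the libraries labelled rescue (2.08, adjusted p = 1.36e-18), with 14.3, 14.9 and 12.4 in clone 2. CDKN1A, the CDK inhibitor p21, was at 20.4, 24.6 and 22.03 and 46.7, 48.2 and 48.9 CPM (1.105, adjusted p = 1.56e-20), with 83.8, 78.6 and 81.1 in clone 2. Both were above wild-type and below clone 2 in every library. Of the 3 that fell, CCND2 had no read, as above, and CCND1 (-0.42) and the inhibitor CDKN1C (-2.27) are on chromosome 11. Among 20 p53 target genes 7 rose and 7 fell, with a median of -0.015, where 28.5% of all genes tested rose and 29.9% fell.

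Cholesterol synthesis genes were lower than in wild-type, as in clone 2. Of 25 tested 18 were called lower, 2 higher and 5 not called, and their median was -0.398, against -0.38 in clone 2. DHCR7, the last enzyme of the pathway, was at 291, 294 and 279.9 CPM in wild-type and 118, 121 and 125 in the libraries labelled rescue (-1.25, adjusted p = 1.46e-28). MSMO1, a sterol demethylase, was at 122, 114 and 128 and 50.1, 56.5 and 55.8 CPM (-1.17, adjusted p = 5.99e-24), and HMGCS1, which makes HMG-CoA, at 238, 245 and 241 and 137, 139.7 and 135 (-0.81, adjusted p = 6.39e-23). None of these overlapped between the groups. DHCR7 and SC5D (-1.31) are on chromosome 11, while HMGCS1 is on chromosome 5.

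Other metabolic lists moved by less, and over all genes tested 28.5% rose and 29.9% fell. Of 20 glycolysis enzymes 11 rose and 3 fell (median 0.15), led by HK1, a hexokinase bound to mitochondria, at 26.5, 29.3 and 26.5 CPM in wild-type and 83.2, 85.3 and 83.9 in the libraries labelled rescue (1.62, adjusted p = 8.24e-29). Of 27 genes of ATF4 and amino acid stress 7 rose and 15 fell (median -0.19). ALDH1L2, a mitochondrial folate enzyme, fell from 76.1, 75.3 and 75.6 to 23.8, 23.8 and 23.9 CPM (-1.67, adjusted p = 4.41e-26). Of 15 mitochondrially encoded genes 13 rose and 0 fell (median 0.196), with the ribosomal RNAs MT-RNR1 (0.98) and MT-RNR2 (0.96) most. The summed level of these genes was 30267 to 31158 CPM in wild-type and 36394 to 39952 in the libraries labelled rescue.

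**Figure D3:**
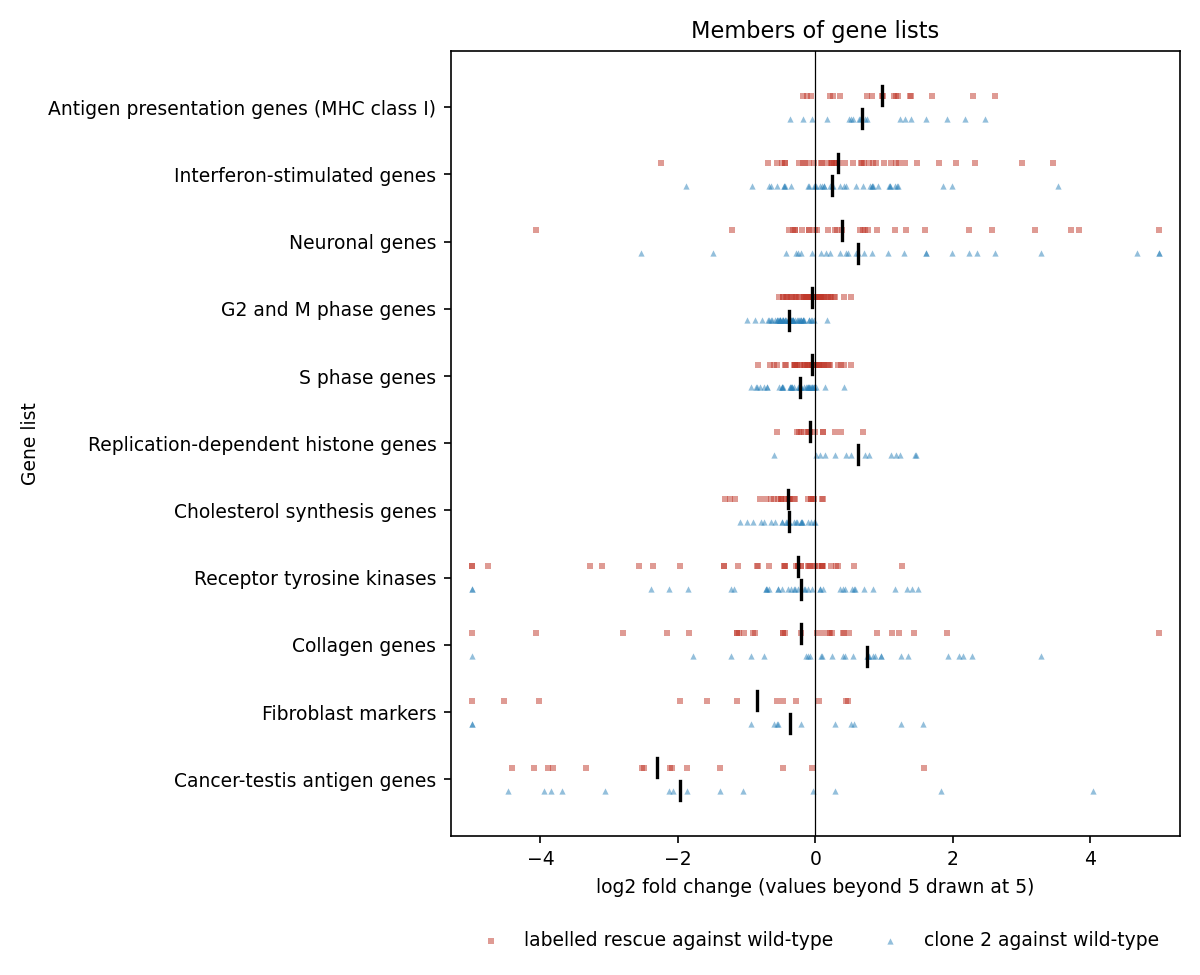
Log2 fold changes of the tested members of 11 gene lists, for libraries labelled rescue against wild-type (squares) and for clone 2 against the same wild-type libraries (triangles), with a bar at each median. Members beyond 5 are drawn at 5. The antigen presentation medians, 0.98 and 0.69, are to the right of 0, the cancer-testis medians far to the left, and the collagen and histone medians differ most between the pair.

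Collagen and other matrix genes moved in both directions. Of 29 collagen chains 9 were called higher and 13 lower, where 28.5% of all genes tested were higher and 29.9% lower. Their median was -0.205, against 0.75 in clone 2. COL1A1, the main chain of fibrillar collagen, was at 26.1, 27.7 and 28.3 CPM in wild-type and 12.7, 11.7 and 12.8 in the libraries labelled rescue (-1.15, adjusted p = 1.19e-17), while clone 2 was at 64.5, 58.7 and 72.03. The collagen VI chain COL6A1 was at 9.35, 8.86 and 8.89 and 2.31, 2.83 and 2.41 CPM (-1.84, adjusted p = 1.47e-17), with 11.8, 10.3 and 9.44 in clone 2. ELN, the elastin precursor, was at 33.1, 34.7 and 33.99 and 15.9, 13.2 and 16.1 CPM (-1.17, adjusted p = 1.8e-19), with 70.1, 69.2 and 76.4 in clone 2. For COL1A1 and ELN the libraries labelled rescue were below wild-type and clone 2 above it, without overlap. Other chains were higher than wild-type and near clone 2: COL9A2, a cartilage collagen, was at 7.92 ± 0.521, 29.99 ± 1.63 and 33.7 ± 0.759 CPM, and COL5A1, which sets fibril width, at 13.4 ± 1.03, 30.99 ± 0.235 and 33.7 ± 2.41, in wild-type, libraries labelled rescue and clone 2.

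Of 37 non-collagen matrix genes 14 rose and 14 fell (median -0.071), where 28.5% of all genes tested rose and 29.9% fell. SPARC, a collagen-binding glycoprotein, rose from 187, 189 and 190.2 to 458, 482 and 479 CPM (1.33, adjusted p = 9.18e-31) and the proteoglycan VCAN from 0.114 ± 0.0657 to 1.64 ± 0.234 (3.86). SERPINF1, a secreted inhibitor of vessel growth, fell from 31.4, 30.1 and 30.1 to 2.06, 2.33 and 2.22 CPM (-3.79, adjusted p = 4.57e-30), and the gelatinase MMP2 kept 2 of 144 reads. Fibroblast markers gave 2 called higher and 9 lower of 12, with a median of -0.85 against -0.37 in clone 2. THY1, a surface protein of fibroblasts and neurons on chromosome 11, was at 26.7, 28.1 and 30.6 CPM in wild-type, 1.03, 0.969 and 1.72 in the libraries labelled rescue and 17.4, 14.2 and 24.6 in clone 2 (-4.52 against wild-type, adjusted p = 7.23e-25). PDGFRB, the second receptor for platelet-derived growth factor, was at 96.01, 94.4 and 98.6, 23.6, 23.2 and 27.3 and 66.8, 66.7 and 65.4 CPM (-1.97, adjusted p = 1.94e-30). In both genes the libraries labelled rescue were the lowest.

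Receptor tyrosine kinases were lower more often than higher. Of 38 tested 24 were called lower, 5 higher and 9 not called (median -0.25, clone 2 -0.21). Beside PDGFRA and PDGFRB, the GDNF receptor RET fell from 3.77, 3.74 and 3.69 to 0.404, 0.233 and 0.497 CPM (-3.28, adjusted p = 2.22e-15), with clone 2 at 1.08, 1.21 and 0.787. The collagen receptor DDR2 fell from 102, 102 and 101 to 42.2, 39.6 and 39.6 CPM (-1.33, adjusted p = 1.12e-26), and FGFR4, a fibroblast growth factor receptor, from 24.6 ± 0.959 to 9.79 ± 0.782. EPHA5, an ephrin receptor, fell from 218 reads to 6. ERBB4, a neuregulin receptor, rose from 6.84, 6.97 and 7.101 to 18.7, 15.4 and 15.8 CPM (1.254, adjusted p = 4.51e-16). Feedback genes of FGF and ERK signalling showed no common direction, with 10 higher and 9 lower of 25 (28.5% and 29.9% of all genes tested). Among them DUSP6, a phosphatase of ERK, was at 29.8 ± 2.77 CPM in wild-type, 35.5 ± 1.57 in the libraries labelled rescue and 94.8 ± 7.78 in clone 2, and EGR1, an immediate early factor, at 26.98 ± 2.22, 27.6 ± 0.705 and 50.7 ± 4.06. EGR1 overlapped with wild-type and was not called (adjusted p = 0.605), and ETV5, an ETS factor, was below wild-type (-1.04) while above it in clone 2 (0.41).

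Pathways upstream of ID genes and of cell fate were also covered. Of 18 BMP receptors, ligands and SMADs, the route that commonly turns ID genes on, 11 were called lower and 1 higher (median -0.31). The BMP receptor BMPR1B fell from 4.11, 4.12 and 4.48 to 1.21, 1.395 and 0.917 CPM (-1.85, adjusted p = 6.67e-12), while SMAD2 (-0.46) and SMAD4 (-0.44), the shared transducer, are on chromosome 18, whose genes were lower as a whole. Of 21 TGF-beta target genes 13 fell and 6 rose (median -0.33), and PMEPA1, an inhibitor of that pathway, fell from 3.104, 3.22 and 3.102 to 0.441, 0.387 and 0.4205 CPM (-2.899, adjusted p = 8.2e-14). Of 23 Notch pathway genes 12 fell and 5 rose (median -0.202). The ligand JAG2 was at 17.4, 15.02 and 16.2 CPM in wild-type, 4.81, 3.797 and 3.36 in the libraries labelled rescue and 15.3, 12.6 and 14.4 in clone 2 (-2.02 against wild-type, adjusted p = 2.25e-20), and the receptor NOTCH3 at 43.7 ± 0.351, 25.7 ± 1.18 and 42.96 ± 2.37. The Notch-like ligand DLK1, an imprinted gene, rose from 0.629, 0.379 and 0.414 to 6.72, 5.97 and 6.27 CPM (3.73, adjusted p = 5.01e-21), with clone 2 at 17.5, 16.6 and 16.4. Of 23 Wnt pathway genes 11 fell and 7 rose, with the secreted antagonist FRZB at 5.05 ± 0.572 CPM against 0.361 ± 0.0694 in wild-type. For each of these lists, the shares over all genes tested were 29.9% fallen and 28.5% risen.

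Cancer-testis antigen genes, normally limited to germ cells, were lower. Of 14 tested 9 were called lower, 0 higher and 5 not called, with a median of -2.31 (-2.32 with members of 3 reads or fewer set at their ratio or bound) against -1.97 in clone 2. CTCFL, a testis paralog of CTCF, was at 145, 147 and 142 CPM in wild-type and 32.5, 35.3 and 33.9 in the libraries labelled rescue (-2.09, adjusted p = 1.06e-33). PRAME, an antigen targeted in tumors, was at 75.7, 74.5 and 79.3 and 17.6, 18.2 and 17.1 CPM (-2.12, adjusted p = 3.69e-31), and PIWIL2, an Argonaute protein of the germ line, at 3.397, 3.32 and 4.03 and 0.0734, 0.233 and 0.191 (-4.42, adjusted p = 5.49e-17). None overlapped with wild-type. MAGEA3 went from 1.68 ± 0.344 to 0.165 ± 0.0475 CPM, but MAGEA genes have near-identical copies. Of 26 DNA methylation and polycomb genes 8 rose and 10 fell (median -0.031), with the polycomb readers CBX7 (1.595) and MTF2 (1.004) highest. Of 19 imprinted genes 4 rose and 8 fell, and 4 of those that fell remain when chromosomes 11 and 18 are left out. ZDBF2 fell from 2.07 ± 0.341 to 0.0999 ± 0.0929 CPM and the growth factor IGF2, on chromosome 11, from 65 reads to 4. Of 29 HOX cluster genes 13 rose and 6 fell (median 0.11). Over all genes tested 28.5% rose and 29.9% fell.

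Ewing sarcoma identity markers stayed expressed. Of 11 tested 6 were called lower and 1 higher, none by 2-fold (median -0.102). NKX2-2, a homeobox target of the fusion, was at 12.7, 8.62 and 12.03 CPM in wild-type and 17.03, 16.3 and 16.2 in the libraries labelled rescue (0.56, adjusted p = 1.55e-06), and the orphan receptor NR0B1 at 144, 132 and 144 and 119, 112 and 118 (-0.27, adjusted p = 1.91e-06), with clone 2 at 217, 195 and 229. The surface protein STEAP1 was at 267 ± 8.95 and 201 ± 6.34 CPM (-0.41). Over all genes tested 28.5% rose and 29.9% fell. Of 31 genes listed as activated by the fusion 16 fell, ID2 itself among them, and 5 rose (median -0.27). Of 20 listed as repressed 9 rose and 9 fell. LOX, a collagen cross-linking enzyme that stands in both of these lists and is counted as fallen in each, went from 1.396 ± 0.1299 to 0.229 ± 0.117 CPM (-2.59).

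Some genes of the libraries labelled rescue stood apart from wild-type and clone 2 alike. MT2A, a metallothionein that binds zinc and copper, was at 88.4, 90.97 and 88.4 CPM, against 29.8, 36.4 and 31.9 in wild-type and 40.2, 39.2 and 36.6 in clone 2 (1.45 and 1.204, adjusted p = 3.01e-25 and 3.97e-22). TIMP4, an inhibitor of matrix metalloproteinases, was at 9.32, 9.96 and 9.02 CPM, against 1.93, 2.23 and 2.103 and 1.96, 1.82 and 1.53 (2.18 and 2.4, adjusted p = 1.22e-18 and 1.09e-18). MECOM, a zinc finger factor of stem cells, was at 8.03 ± 0.616 CPM, against 3.56 ± 0.284 and 3.18 ± 0.0675. All 3 were higher in every library labelled rescue than in any wild-type or clone 2 library. MT2A, TIMP4 and MECOM, like TGFA, DAAM2, COL6A1 and JAG2, were picked as called in the same direction against both groups. No overlap with wild-type was also required, so their separation from it follows from the choice. VIM, the intermediate filament of mesenchymal cells, was higher too, at 762 ± 34.5 CPM against 405 ± 8.896 and 474 ± 9.38.

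In the other direction, TGFA, a ligand of the EGF receptor, was at 1.101, 1.12 and 1.38 CPM in the libraries labelled rescue, 6.04, 6.21 and 6.93 in wild-type and 5.79, 6.58 and 7.13 in clone 2 (-2.42 against wild-type and -2.42 against clone 2, adjusted p = 7.5e-18 and 4.64e-17). Wild-type and clone 2 overlapped. DAAM2, a formin of Wnt signalling, was at 0.923 ± 0.259 CPM, against 3.299 ± 0.381 and 3.14 ± 0.148. For COL6A1, JAG2 and THY1, given above, the libraries labelled rescue were likewise the lowest. A few genes were above wild-type in the libraries labelled rescue and below it in clone 2: CRIP2, a LIM domain protein, was at 300.2 ± 5.03, 226 ± 8.86 and 178 ± 5.901 CPM in the libraries labelled rescue, wild-type and clone 2, and the phospholipase PLA2G3 at 19.9 ± 1.21, 14.6 ± 0.983 and 9.78 ± 1.01.

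**Figure D4:**
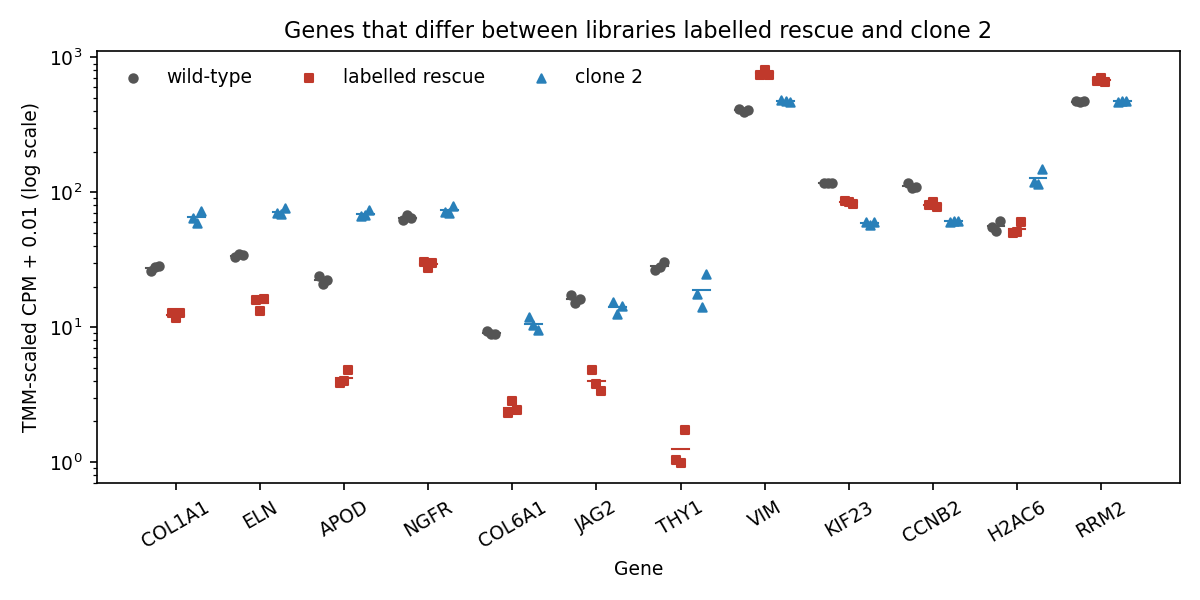
TMM-scaled CPM plus 0.01 on a log axis for 12 genes that differ between the libraries labelled rescue and clone 2, with 1 point per library and a bar at the mean of 3. COL1A1, ELN and APOD are below wild-type in the libraries labelled rescue and above it in clone 2, KIF23 and CCNB2 lie between wild-type and clone 2, H2AC6 overlaps with wild-type, and VIM and RRM2 are above both.

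Part of the difference from wild-type followed chromosomes. Genes with a mean of 1 CPM or more were placed by GENCODE release 29 on hg38. The 711 genes of chromosome 11 had a median of -0.55 (clone 2 -0.60), 82.3% of them were called lower, and the median over the other chromosomes was 0.0023. The 186 genes of chromosome 18 had a median of -0.29 (clone 2 -0.36), with 74.7% called lower. Chromosomes 19 and 20 were slightly up, with medians of 0.14 for each. Upper quartile scaling, which shifts all genes by 0.043, left these signs as they were. Within chromosome 4 the genes from 0 to 75 Mb had a median of 0.011 and those from 90 to 165 Mb -0.48 (clone 2 -0.52). These stretches, and those that follow, were joined after the values of 15 Mb windows had been seen.

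Other chromosomes were also shifted, in whole or along their length. The 486 genes of chromosome 8 had a median of -0.21 (clone 2 -0.22). The 15 Mb window with the highest median among those of 20 genes or more was chromosome 1 from 90 to 105 Mb, at 0.65 over 54 genes (clone 2 0.81), with 42 called higher and 4 lower. On chromosome 3 the 96 genes from 0 to 30 Mb had a median of 0.33 (clone 2 0.13) and the 230 from 30 to 60 Mb -0.20 (clone 2 -0.42). The first 30 Mb of chromosome 2, where ID2 lies, had a median of 0.28 over 126 genes (clone 2 0.33), and the 586 genes from 30 to 195 Mb had -0.24 (clone 2 -0.12). ID2 was lower than wild-type, while the median of its stretch was higher. DNA copy number was not measured here, and its part in these values was not tested. Leaving out every gene of chromosomes 11 and 18, an alternative chosen after the data were seen, gave 4795 genes called higher and 4351 lower.

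**Figure D5:**
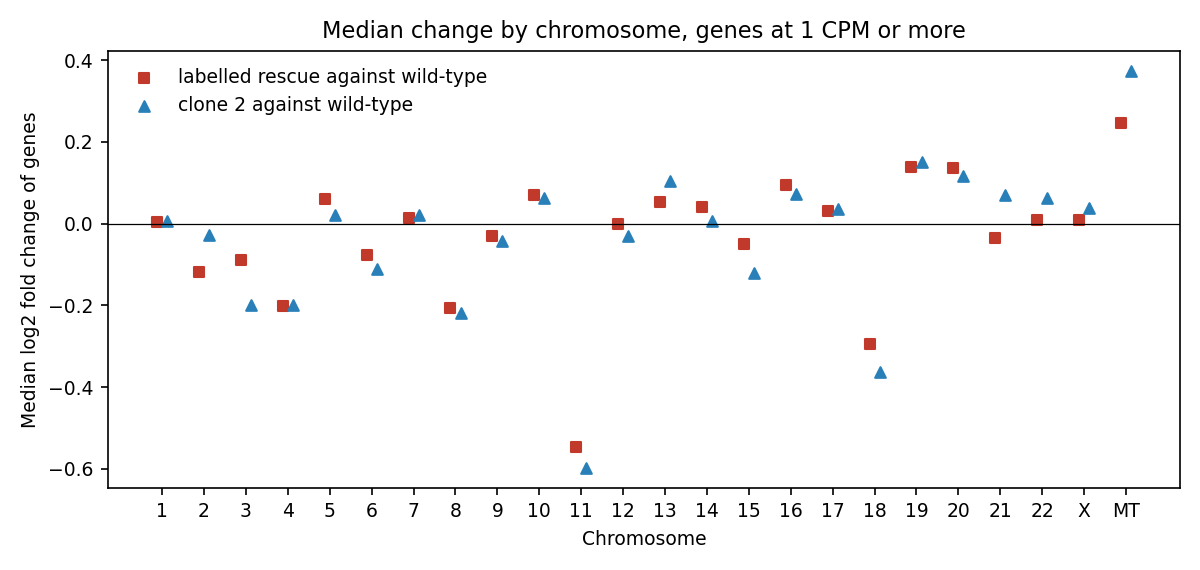
Median log2 fold change of genes at 1 CPM or more, by chromosome, for libraries labelled rescue against wild-type (squares) and clone 2 against the same wild-type libraries (triangles). Chromosomes 11 and 18 are lowest in both comparisons, and the mitochondrial genes (MT) are highest.

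Markers of other cell types were also measured, and over all genes tested 28.5% were called higher and 29.9% lower. Of 15 epithelial markers tested 2 were called higher and 5 lower, with summed levels of 139 to 146 CPM in wild-type and 99.7 to 109 in the libraries labelled rescue, against 178 to 214 in clone 2. KRT8, a keratin of simple epithelia, was at 7.59 ± 0.905, 3.98 ± 0.172 and 16.5 ± 1.62 CPM in wild-type, libraries labelled rescue and clone 2. Of 18 blood cell markers 7 were tested, 2 higher and 2 lower, and their summed level was 67.3 to 71.6 CPM in wild-type and 28.2 to 29.9 in the libraries labelled rescue, mostly LCP1, an actin-bundling protein that fell from 59.3 ± 1.37 to 20.6 ± 0.972. Of 12 endothelial markers 4 were tested, and 3 were called higher and 0 lower, with sums of 22.98 to 24.5 and 32.9 to 33.1 CPM. Of 12 muscle markers 3 were tested, 1 higher and 1 lower, and their sums were 58.1 to 65.9 and 34.02 to 37.8 CPM. The defining marker of blood cells, PTPRC, had 5 reads in wild-type and 5 in the libraries labelled rescue, and that of endothelium, CDH5, had 6 and 3, so neither was tested. The part of these markers in the other results was not tested.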

How the data were processed

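The authors deposited raw counts of reads per gene, with 1 column for each of the 12 TC71 libraries. Libraries were of polyadenylated RNA and made with a stranded kit, per the labels. FastQC and STAR, with hg38 as the genome, are named in the submitters' processing notes. The read counter, its strand setting, the annotation and the filter that left 21569 genes: not given in the sources used here. Values of antisense genes, of overlapping genes and of families with near-identical copies (HLA, MAGEA, CSAG, histone, MBD3L) are therefore uncertain.

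A table of gene names gave symbols for 20717 identifiers, GENCODE release 29 gave positions for 20825, and promoters were from RefSeq. Titles gave the groups. The test was edgeR's quasi-likelihood test (version 4.0.16, R 4.3.3), two-sided, with TMM scaling and filterByExpr at a minimum count of 10. All 12 libraries entered a single fit with a mean for each group, which had 17084 genes, 8 residual degrees of freedom and a common biological coefficient of variation of 2.95%. For a gene without a read in a group the fold is a lower bound against 3 counts over the group. With 1 to 3 reads it is the ratio of scaled reads with an exact 95% interval. Bounds and intervals reflect counting error alone. Chi-square per degree of freedom between replicates was 1.58 to 3.40 over the 12 pairs within the 4 groups, so none was counted as a repeat.

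The procedure was tested on simulated counts of 16657 genes, with 50 genes changed at each of 1.25-, 1.5-, 2- and 4-fold. The changed genes had a mean of 1 CPM or more. In the right direction 66%, 90%, 94% and 100% of them were called. Of 189 calls 14 were false. Far fewer genes were changed there than were called in these data, so the error rate of the calls here is not given by it.

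The members, the 36 gene lists and the rule for named genes were chosen with earlier results of these data known. The rule took the 4 ID genes, the 15 genes that rose and 15 that fell most, 6 and 6 with the largest change while within 1.25-fold of clone 2, 6 and 6 that differed in the same direction from wild-type and clone 2, and 6 and 6 called in opposite directions in the libraries labelled rescue and in clone 2. It also took, from every list, up to 4 called genes by size. Not all are printed, and some genes are not reported here. Outside the lists a mean of 1 CPM or more and no overlap of the libraries were needed. Other list members printed here were picked with their values seen, to describe their list, and the motif letters were chosen in the same way. Lists are described by counts and medians, with no test. As alternatives, the scaling was changed to DESeq2 size factors or to the upper quartile, and the filter was dropped or set to 1 CPM in 3 libraries. The test was changed to limma-voom (limma 3.58.1), to the Wald test of DESeq2 1.42.0 or to glmTreat against 2-fold. The fit was also run with only the 6 libraries compared, with a replicate block, at an adjusted p under 0.01, and without each library in turn. Clone 1 entered the fit and is not described.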

Additional observations from a re-analysis of the deposited data

How the results depend on the processing

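The ID2 difference kept its sign and its call under the alternatives that were run. More genes were called lower than higher (5114 against 4868), and that order turned under upper quartile scaling (4470 against 5537), with only the 6 libraries compared (4817 against 4835) and without genes of chromosomes 11 and 18 (4351 against 4795). A fitted fold of 2 or more gave 1159 higher and 679 lower, and edgeR's glmTreat, which tests against a 2-fold change, gave 443 and 357. Leaving out each library in turn gave 4435 to 4793 genes higher, 4785 to 4997 lower, 1117 to 1206 at least 2-fold higher, 672 to 719 at least 2-fold lower, and an ID2 difference of -0.91 to -0.90. Upper quartile scaling in edgeR shifted the median by 0.043, and the share of called genes that were higher went from 48.8% to 55.3%. The DESeq2 Wald test gave 4337 higher and 4817 lower. Of the values of single genes and list counts, 4085 kept their side of the threshold or their size, 44 lost their call, 3 gained one, 6 changed sign and 31 moved. The lost calls were of 12 genes, of which PSMB8 is the 1 named in the text. CD99 was called higher with upper quartile scaling (0.11, adjusted p = 0.00547) and with only the 6 libraries (0.0835, 0.0479), and PDIA3 lower without replicate 2 labelled rescue (-0.0986, 0.015). The changes of sign were of genes not called in any of these fits: FLI1 at 0.0351 with upper quartile scaling, 0.004 with the 6 libraries and -0.0285 to 0.0025 when each library was left out, TCF4 at 0.0158 with upper quartile scaling and -0.0494 to 6e-04 when each library was left out, and EGR1 at -0.0064 to 0.11 when each library was left out. Small list counts moved as well: the 2 cholesterol synthesis genes called higher went to 1 or 0, and the 1 muscle marker called higher to 0. Leaving out chromosomes 11 and 18 was chosen after the data were seen, and there the CDK inhibitors, RB family and D cyclins called lower went from 3 to 1.

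The replicate numbers of the titles did not pair the libraries: deviations of same-numbered wild-type and rescue libraries had r of -0.0343, -0.0246 and 0.0219 over 13844 genes. With a replicate block 4880 genes were higher and 5124 lower, 1145 and 675 of them by at least 2-fold, and the ID2 difference was -0.91.

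A group of 3 libraries limits the spread estimate, which all 12 libraries share. At this depth a group with no read allows up to 0.0379 CPM in the libraries labelled rescue and 0.0406 CPM in wild-type (3 counts), so absence cannot be told from levels below that.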
